A study of Mus musculus with 4 samples.

Results

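The collagen genes were taken as the rows of the count table whose symbol reads Col, a number, a and a number. This rule found 40 of the 26301 genes in the table, and all 40 were matched to a position in GENCODE M1 on NCBIM37 (mm9). They were divided by protein class into 11 fibrillar genes, 8 basement membrane genes (Col4a1 to Col4a6, Col15a1 and Col18a1), 9 FACIT genes, whose products decorate fibrils, 4 transmembrane genes, and 8 of type VI and other non-fibrillar types. Symbols were those of the table, so collagens listed there under older names are not members.

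Collagens are the main structural proteins of the extracellular matrix, secreted as helices wound from several α-chains that are often encoded by different genes. Fibrillar collagens, such as types I, III and V, assemble into the fibres of connective tissue and are made in bulk by fibroblasts. Basement membrane collagens behave differently: type IV builds the sheet that underlies epithelia and endoderm, and types XV and XVIII are carried within that zone. In mouse embryonic stem cells (ESCs), type IV collagen is best known from the endoderm that can arise in culture, whereas fibrillar collagen is best known from the embryonic fibroblasts on which the cells are fed.

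The study's ESC libraries numbered 4, from 2 biological replicates of WT cells (line N6) and 2 of Rest-/- cells (line N8). They were prepared from total RNA. REST is a zinc finger repressor that silences neuronal genes outside neurons through a DNA element called RE1. Each genotype was 1 line, so line and genotype cannot be told apart. Both lines were grown in serum and LIF on irradiated mouse embryonic fibroblasts and then passaged 3 times on gelatin to remove them before RNA extraction. In the text, CPM means counts scaled to library size with edgeR's TMM factors, and a log2 fold change, or log2 change, is Rest-/- over WT as edgeR fitted it.

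The libraries held between 22293966 and 30953863 counts on genes, of which 0.0961% and 0.106% fell on collagen genes in WT replicates 1 and 2, and 0.14% and 0.124% in Rest-/- replicates 1 and 2. The floor of 3 counts was 0.0969 to 0.135 CPM. Rest itself had counts of 7908 and 6233 (WT) and of 4244 and 3890 (Rest-/-), a log2 fold change of -0.52 (standard error 0.13) with adjusted p 0.526 by edgeR's quasi-likelihood test. The count covers the whole gene, so it does not show which exons were read. All 10 undifferentiated ESC markers examined passed the filter, with summed levels of 5256 and 5166 CPM in WT and 4590 and 4830 CPM in Rest-/- libraries, a median log2 change of -0.04, 0 past the test and 3 at an unadjusted p under 0.05, against 6.71% of all genes tested. Pou5f1, Dppa5a and Esrrb had log2 changes of 0.08, 0.02 and -0.32. Zfp42, the ESC marker Rex1, was at 704.5 and 541 CPM in WT and at 258 and 226 CPM in Rest-/- libraries (log2 change -1.36, standard error 0.18, adjusted p 0.179), and Nanog was at 359.6 and 347 CPM in WT and at 261 and 254 CPM in Rest-/- libraries (log2 change -0.46, standard error 0.12, adjusted p 0.546). The part of these markers' shifts in the collagen values was not tested. In these bulk samples, fewer cells of a type and less RNA per cell cannot be told apart.

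Because REST binds RE1, the genome around the collagen genes was searched on both strands for the motif's left block AGCACC and right block GGACAG separated by 2 free bases, within 20000 bases of an annotated start site. The exact letters were found near 2 of 40 collagen genes (5%), against 617 of 21860 genes with a position (2.82%). These 2 matches are shown with 20 bases on each side, read on the minus strand of mm9 with both blocks in capitals, since they mark the only collagen genes with these letters nearby.
Col27a1: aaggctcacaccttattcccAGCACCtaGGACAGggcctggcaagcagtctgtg
Col5a3: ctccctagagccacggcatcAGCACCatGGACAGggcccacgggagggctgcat
The first window lies at chr4:62949970-62950023, in an intron of Col27a1 and 5449 bases from its nearest annotated start site. The second lies at chr9:20617617-20617670, in an intron of Col5a3 and 1868 bases from a start site. A match of letters is a description and does not show that REST was bound there. Both genes encode fibrillar chains, and their levels went opposite ways between the genotypes, as given with the fibrillar genes.

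Collagen expression in these ESCs was dominated by a single basement membrane gene. Col18a1, which encodes the precursor of the angiogenesis inhibitor endostatin, held 22240 and 19281 counts in WT replicates 1 and 2, and 22297 and 17911 in the Rest-/- replicates. Basement membrane genes together took 84% and 84.4% of all collagen counts in the WT libraries (95% Wilson intervals 83.6 to 84.4% and 84 to 84.8%). They took 78.4% in Rest-/- replicate 1 (78 to 78.9%) and 87.1% in Rest-/- replicate 2 (86.7 to 87.5%). Fibrillar genes took 7.42% (7.13 to 7.73%) and 8.65% (8.33 to 8.99%) in WT, 12.9% (12.6 to 13.3%) in Rest-/- replicate 1 and 7.18% (6.88 to 7.49%) in Rest-/- replicate 2. The intervals cover counting error only. The fibrillar share was thus larger in 1 of the Rest-/- libraries than in the other 3 libraries, and the other Rest-/- library did not exceed the WT range.

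The order of collagen levels was read per kilobase of annotated exon. On that scale, WT cells held Col18a1 at 102 ± 0.149 CPM per kilobase (SD, n = 2), followed by Col4a1 at 13 ± 5.91, Col9a2 at 11.6 ± 1.1 and Col4a2 at 6.65 ± 3.59. The levels of Col4a1 and Col9a2 were closer than the spread between the WT libraries. In Rest-/- cells the order was Col18a1 at 119 ± 5.48 CPM per kilobase, Col4a1 at 23.5 ± 3.14, Col4a2 at 12.5 ± 2.96 and Col9a2 at 6.99 ± 0.74 (SD, n = 2). Among fibrillar genes in WT, Col2a1 at 2.73 ± 1.38 and Col5a1 at 2.59 ± 1.2 CPM per kilobase differed by less than their spread, and per kilobase of coding length their order turned, at 3.68 and 3.93. In Rest-/- cells Col1a1 had the highest mean, at 4.14 ± 4.08 CPM per kilobase, an SD close to the mean. That rank rested on Rest-/- replicate 1, at 7.02. In Rest-/- replicate 2 Col1a1 was at 1.25, below Col5a1 at 3.92.

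At the other end, 1 collagen gene, Col19a1, was listed at 0 in every library, which at 3 counts allows up to 0.0969 to 0.135 CPM, and Col28a1 did not exceed 3 counts in any. Mia3, a receptor for collagen export that most cells express, was also listed at 0 in every library, so a 0 in this table may be a gene that was not counted. In all, 11 members did not pass edgeR's filter on low counts, with at most 16 counts in any library: the fibrillar gene Col24a1, the basement membrane genes Col4a3, Col4a4, Col4a6 and Col15a1, the FACIT genes Col9a1, Col14a1 and Col19a1, the transmembrane gene Col25a1, and Col10a1 and Col28a1. The type IV chains α3 and α4, known from kidney and lung, were therefore near or under the floor, at 0 to 4 counts per library. Col15a1, the nearest relative of Col18a1, had counts of 9 and 7 (WT) and of 4 and 5 (Rest-/-).

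**Figure D1:**
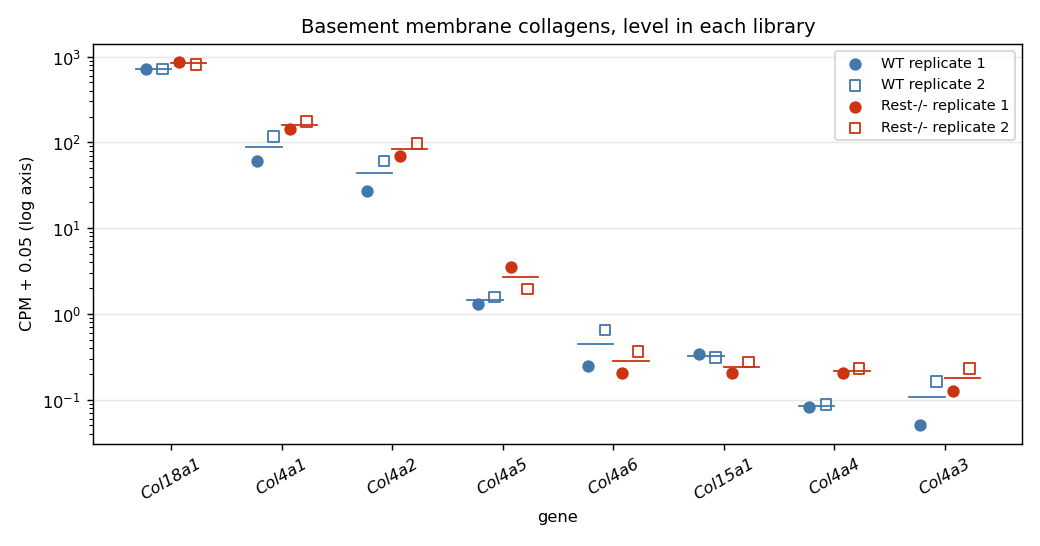
Level of the 8 basement membrane collagen genes in each library, in CPM plus 0.05 on a log axis, with WT libraries in blue, Rest-/- libraries in red and a line at each genotype's mean. Col18a1, Col4a1, Col4a2 and Col4a5 have both Rest-/- libraries above both WT libraries, and the other 4 genes stay under 1 CPM, where Col4a4 (higher) and Col15a1 (lower) do not overlap either.

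To ask whether collagen expression differed between the genotypes, the 15444 genes that passed the filter, 29 collagens among them, were compared by edgeR's quasi-likelihood test, with p adjusted by Benjamini-Hochberg over all of them. At an adjusted p under 0.05, 0 of 29 collagen genes were called, against 9 of 15444 genes (0.0583%). At an unadjusted p under 0.05 there were 2 collagen genes, Col9a2 and Col5a3, against 6.71% of all genes tested. DESeq2 and edgeR's exact test with tag-wise dispersion also called 0 collagens. The exact test with a common dispersion called 5 of 29 (Col1a1, Col1a2, Col3a1, Col5a2 and Col8a1), against 2.22% of all genes. With the replicate number added as a block, the quasi-likelihood test called 9 of 29 collagens, against 17.0% of all genes. Nothing in the labels ties that number to a batch. A gene was also described by whether its libraries overlapped: both Rest-/- libraries were above both WT libraries for 9 of 29 collagens, against 16.5% of all genes tested, and below them for 2 of 29, against 15.4%. Exact permutation of 2 libraries against 2 cannot give a two-sided p under 0.333, so none was run on single genes or sums. The counts of collagens refer to those that passed the filter, not to all members.

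The 4 basement membrane genes that passed the filter were each higher in both Rest-/- libraries than in both WT libraries, as were 16.5% of all genes tested, and none passed the test. Their median log2 fold change was 0.89, where the median of all genes tested was -0.0047. Within replicate numbers, as differences of log2(CPM + 0.5), the median of the 4 was 1.22 in replicate 1 and 0.41 in replicate 2. Without Rest-/- replicate 1 the median over the 5 genes then fitted was 0.45, with 4 of 5 positive. The gene added there was Col4a6, at -0.30. The same 4 genes were at 0.99 (Col4a1), 1.14 (Col4a2), 0.45 (Col4a5) and 0.17 (Col18a1). Without WT replicate 1, again with Col4a6, the median was also 0.45. Without WT replicate 2, where Col4a6 was not fitted, it was 1.25.

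Col4a1 and Col4a2 encode the chains of the common type IV trimer. They lie head to head on chromosome 8, Col4a1 from 11198423 to 11312826 on the minus strand and Col4a2 from 11312805 to 11449287 on the plus strand, and their annotated starts overlap by 22 bases. Col4a1 stood at 59.9 and 117 CPM in WT replicates 1 and 2 and at 145 and 175 CPM in the Rest-/- replicates. Col4a2 was at 27.2 and 60.8 CPM in WT and at 69.2 and 96.9 CPM in Rest-/- libraries. For both genes the lowest library was WT replicate 1, WT replicate 2 came next, and the highest was Rest-/- replicate 2, without overlap of the genotypes. The log2 fold changes were 0.86 (standard error 0.35, adjusted p 0.807) for Col4a1 and 0.92 (standard error 0.44, adjusted p 0.887) for Col4a2 in edgeR's quasi-likelihood test. The differences within replicates 1 and 2 were 1.27 and 0.58 for Col4a1, and 1.33 and 0.67 for Col4a2. Without WT replicate 1 the log2 fold changes fell to 0.45 for each of them, and without WT replicate 2 they were 1.42 and 1.61, so the size of the change rested on which WT library was used. The count ratio of Col4a1 to Col4a2 was 2.2 and 1.92 in WT and 2.1 and 1.81 in Rest-/- libraries, a smaller range than that of either level. Tested genes of chromosome 8, 758 in all, had a median log2 fold change of -0.13.

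Col18a1, on chromosome 10 from 76514923 to 76629293, was at 718 and 719.9 CPM in the WT libraries and at 863 and 809 CPM in the Rest-/- libraries. The genotypes did not overlap, at 719 ± 1.05 CPM in WT and 836 ± 38.5 CPM in Rest-/- cells (SD, n = 2). The log2 fold change of 0.22 (standard error 0.12) had an adjusted p of 0.946 in edgeR's quasi-likelihood test. Col4a5, an X-linked chain of the kidney type IV network, had counts of 39 and 41 (WT) and of 89 and 42 (Rest-/-), with a log2 change of 0.94 (standard error 0.44). The 538 tested genes of the X chromosome had a median log2 fold change of -0.40. Col4a6, which starts 1308 bases away on the other strand, had counts of 6 and 16 (WT) and of 4 and 7 (Rest-/-) and was not tested.

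Markers of primitive and parietal endoderm, cells that secrete type IV collagen, were set beside these values, in a list that also holds genes of visceral endoderm. The 15 markers, none a collagen, summed to 88.2 and 245 CPM in WT replicates 1 and 2 and to 190 and 299.7 CPM in the Rest-/- replicates, with WT replicate 1 lowest and Rest-/- replicate 2 highest. That placing was set by Lrp2, which encodes megalin and stood at 62.3 and 212 CPM in WT and at 123 and 246 CPM in Rest-/- libraries. Without Lrp2, left out after the values were seen, the other 14 markers summed to 25.9 and 33.4 CPM in WT and to 67.2 and 53.9 CPM in Rest-/- libraries, so WT replicate 1 was still lowest but Rest-/- replicate 1 was highest. Of the 13 that passed the filter, 6 were above both WT libraries in both Rest-/- libraries and 1 was below, against 16.5% and 15.4% of all genes; 0 passed edgeR's quasi-likelihood test, and 6 had an unadjusted p under 0.05, against 6.71% of all genes. Their median log2 fold change was 0.59. Cubn, which encodes the endocytic receptor cubilin, had counts of 72 and 52 (WT) and of 354 and 309 (Rest-/-), a log2 change of 2.69 (standard error 0.27, adjusted p 0.109). Dab2, an adaptor of endocytosis, had counts of 115 and 227 (WT) and of 455 and 293 (Rest-/-), a log2 change of 1.34 (standard error 0.47). Hnf4a, a regulator of visceral endoderm, went the other way, with counts of 115 and 128 (WT) and of 19 and 17 (Rest-/-) (log2 change -2.49, standard error 0.35, adjusted p 0.191). Ttr was listed at 0 and Afp at 0 to 2 counts in every library. The part of such cells in the type IV values was not tested.

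Other basement membrane components were mixed, with 12 log2 changes above 0 and 4 below. Among 16 genes of laminins, nidogens, perlecan, agrin and Sparc, all tested, 0 passed edgeR's quasi-likelihood test, 2 had an unadjusted p under 0.05, against 6.71% of all genes, 7 were higher and 2 lower without overlap, against 16.5% and 15.4% of all genes tested, and the median log2 fold change was 0.20. Lama1, at 53.1 and 89.4 CPM in WT and at 91.9 and 139 CPM in Rest-/- libraries, and Lamb1, at 129 and 202 CPM in WT and at 239 and 281 CPM in Rest-/- libraries, had the library order of Col4a1, with log2 changes of 0.70 (standard error 0.34) and 0.65 (standard error 0.25); both were picked after their values were seen. The nidogens, which link laminin to type IV collagen, went the other way without overlap: Nid2, the lowest p of the list, was at 316 and 346 CPM in WT and at 208 and 202 CPM in Rest-/- libraries (log2 change -0.69, standard error 0.12, adjusted p 0.313), and Nid1 had a log2 change of -0.32 (standard error 0.13). The highest mean counts, not set per length, were those of Lama5, the laminin α5 chain, with counts of 18794 and 12315 (WT) and of 16673 and 11871 (Rest-/-), Lamc1 and Hspg2, the last at 18449 and 24364 (WT) and 17835 and 20616 (Rest-/-). Their log2 fold changes were 0.15, 0.10 and 0.11. The largest fold changes were those of Lama3 (log2 change 1.45, standard error 0.41), with counts of 85 and 58 (WT) and of 223 and 106 (Rest-/-), and Lamb3 (log2 change 1.05, standard error 0.41), both chains of an epithelial laminin.

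**Figure D2:**
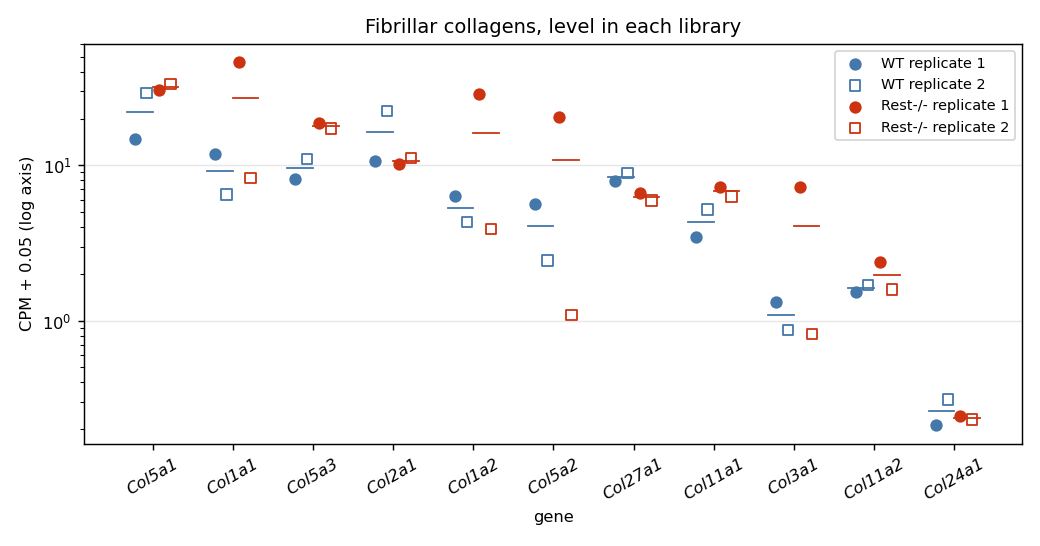
Level of the 11 fibrillar collagen genes in each library, in CPM plus 0.05 on a log axis, with WT libraries in blue, Rest-/- libraries in red and a line at each genotype's mean. For Col1a1, Col1a2, Col5a2 and Col3a1 the filled red point, Rest-/- replicate 1, stands alone above the other 3 libraries.

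Of the 10 fibrillar genes that passed the filter, 4 were over 2 times higher in Rest-/- replicate 1 than in every other library, against 0.796% of all genes tested. A further 4 had genotypes that did not overlap, 3 higher and 1 lower in Rest-/- cells, against 16.5% and 15.4% of all genes, and Col2a1 and Col11a2 showed neither pattern. Over these 10, the median log2 fold change was 0.79, with 8 positive and 2 negative, and 0 passed the test. The median difference was 1.09 in replicate 1 and -0.07 in replicate 2. Leaving out Rest-/- replicate 1 turned the median to -0.29, with 3 of 10 positive. Summed over all 11 genes, the level was 71.4 and 92.3 CPM in WT and 178 and 89.3 CPM in Rest-/- libraries, a log2 ratio of 0.71 between the means that became 0.13 without Rest-/- replicate 1.

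Col1a1 and Col1a2 encode the chains of type I collagen, the bulk protein of fibroblast matrix. Col1a1 was at 11.8 and 6.42 CPM in WT and at 46.1 and 8.22 CPM in Rest-/- libraries. Col1a2 was at 6.27 and 4.26 CPM in WT and at 28.5 and 3.84 CPM in Rest-/- libraries. In both, Rest-/- replicate 1 was far above the other 3 libraries, which lay closer together. Col1a1 showed a log2 change of 1.58 (standard error 0.87, adjusted p 0.965) and Col1a2 one of 1.62 (standard error 0.96, adjusted p 0.989) in edgeR's quasi-likelihood test. Without Rest-/- replicate 1 these turned to -0.14 and -0.45, and without Rest-/- replicate 2 Col1a1 passed the test at 2.33 (adjusted p 0.0496), a fit with 1 Rest-/- library that is assumed to vary as the WT libraries do. The count ratio of Col1a1 to Col1a2 was 1.88 and 1.51 in WT and 1.62 and 2.14 in Rest-/- libraries, a narrow range beside the change in level.

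Col3a1 and Col5a2, which encode the type III chain and a type V chain, lie on chromosome 1 with 24614 bases between them and on opposite strands. Col3a1 had counts of 39 and 22 (WT) and of 187 and 17 (Rest-/-), a log2 change of 1.94 (standard error 1.08, adjusted p 0.965 in edgeR's quasi-likelihood test). Col5a2 had counts of 174 and 64 (WT) and of 529 and 23 (Rest-/-), a log2 change of 1.42 (standard error 1.33). Col5a2 thus had both its highest and its lowest value in the Rest-/- libraries, 20.5 and 1.04 CPM. Their log2 fold changes turned to -0.44 and -1.94 without Rest-/- replicate 1. The other type V chain of the common heterotrimer, Col5a1, did not follow: it was at 14.8 and 29.2 CPM in WT and at 30.7 and 33.3 CPM in Rest-/- libraries, so the count ratio of Col5a1 to Col5a2 ran from 1.5 in Rest-/- replicate 1 to 32 in Rest-/- replicate 2.

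Col5a1, Col5a3 and Col11a1 were the fibrillar genes with both Rest-/- libraries above both WT libraries. Col5a3, a type V chain of restricted expression and 1 of the genes with RE1 letters in an intron, was at 8.14 and 10.9 CPM in WT and at 18.7 and 17.2 CPM in Rest-/- libraries. Its Rest-/- libraries lay well above the WT libraries and close to each other. The log2 fold change of 0.92 (standard error 0.25) had an unadjusted p of 0.018 and an adjusted p of 0.608 in edgeR's quasi-likelihood test, and the difference was 1.15 in replicate 1 and 0.63 in replicate 2. Col11a1, a cartilage chain related to type V, was at 3.39 and 5.15 CPM in WT and at 7.24 and 6.23 CPM in Rest-/- libraries (log2 change 0.66, standard error 0.33). Col5a1 showed a log2 change of 0.54 (standard error 0.36) that became 0.12 without WT replicate 1.

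In the other direction, Col27a1, a widely expressed fibrillar chain with RE1 letters in an intron, was at 7.88 and 8.89 CPM in WT and at 6.58 and 5.87 CPM in Rest-/- libraries. It was the fibrillar gene whose Rest-/- libraries both lay below both WT libraries, with a log2 change of -0.43 (standard error 0.25, adjusted p 0.99 in edgeR's quasi-likelihood test). Col2a1, the collagen of cartilage, was at 10.6 and 22.3 CPM in WT and at 10.2 and 11.1 CPM in Rest-/- libraries (log2 change -0.63, standard error 0.41), and without WT replicate 2, its highest library, the value was 0.012. Col11a2 had counts of 46 and 44 (WT) and of 60 and 34 (Rest-/-), and Col24a1 had 4 to 7 counts in each library.

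**Figure D3:**
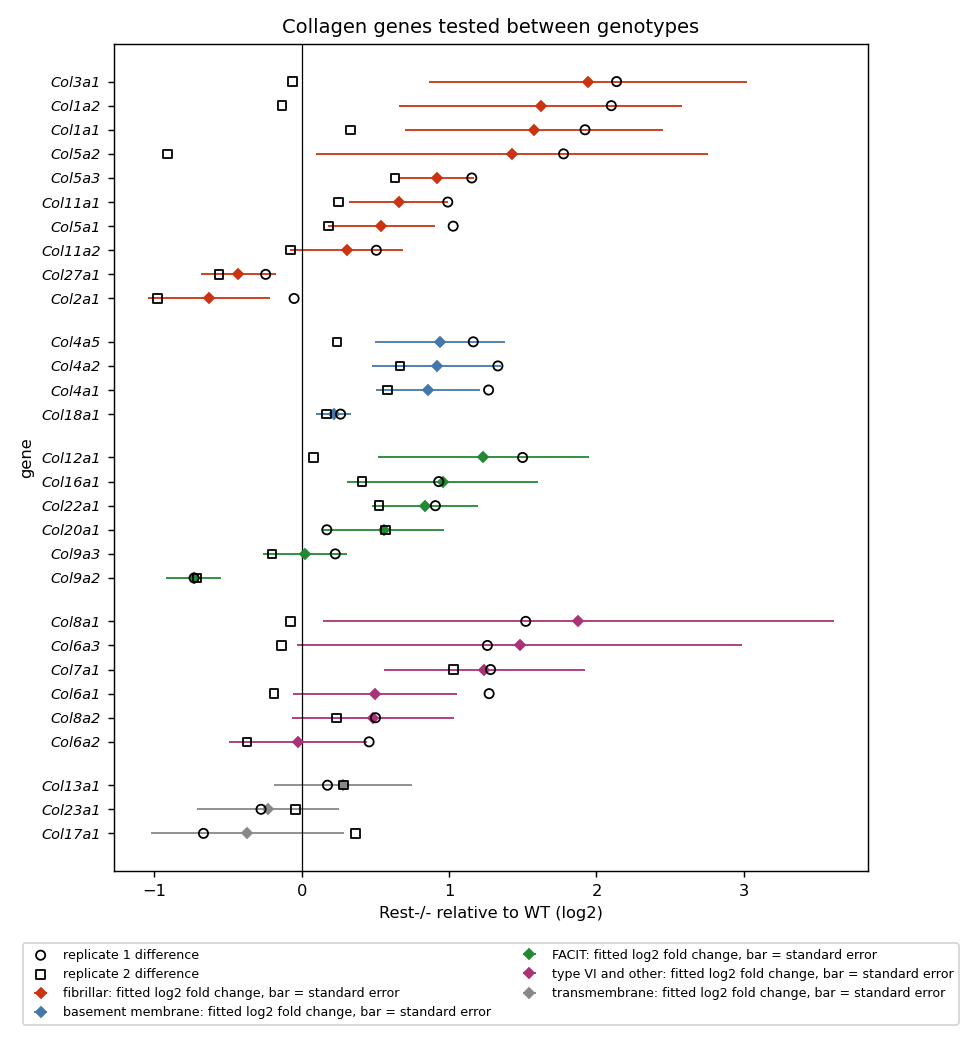
Rest-/- relative to WT on the log2 scale for the 29 collagen genes tested, by class: diamonds are edgeR's fitted log2 fold changes with bars of 1 standard error, open circles and squares the differences of log2(CPM + 0.5) within replicates 1 and 2. Circles and squares lie far apart for Col1a1, Col1a2, Col3a1 and Col5a2, and coincide for Col9a2.

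In the remaining classes, the high values again sat in Rest-/- replicate 1 for some genes, and not for Col9a2. Over the 15 tested genes that are neither fibrillar nor of basement membranes, the median log2 fold change was 0.50, with 11 positive and 4 negative, 2 higher and 1 lower without overlap, against 16.5% and 15.4% of all genes tested, and 0 past the test. Without Rest-/- replicate 1 the median was 0.054.

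Among the FACIT genes, Col9a2 had the most even difference over both replicates of the 29 collagens tested. It encodes a chain of type IX collagen, which coats the fibrils of cartilage, and lies on chromosome 4 from 120711990 to 120727927. It was at 33.5 and 38.3 CPM in WT and at 20.01 and 23.2 CPM in Rest-/- libraries, both Rest-/- libraries below both WT libraries. By edgeR's quasi-likelihood test the log2 change of -0.73 (standard error 0.19) had an unadjusted p of 0.014 and an adjusted p of 0.545, and the differences were -0.73 in replicate 1 and -0.71 in replicate 2. Leaving out any library kept it between -0.85 and -0.62. Its partner chain Col9a3 was at 4.68 and 5.26 CPM in WT and at 5.57 and 4.51 CPM in Rest-/- libraries (log2 change 0.02, standard error 0.28), so that the count ratio of Col9a2 to Col9a3 was 7.15 and 7.28 in WT and 3.59 and 5.15 in Rest-/- libraries. Col9a1, the chain that completes the trimer, had counts of 10 and 8 (WT) and of 7 and 2 (Rest-/-). Col22a1, a FACIT collagen of tissue junctions, had counts of 102 and 74 (WT) and of 171 and 93 (Rest-/-), a log2 change of 0.84 (standard error 0.36, adjusted p 0.823), without overlap on the CPM scale. Col12a1, Col16a1 and Col20a1 had log2 fold changes between 0.56 and 1.23, none past the test, and without Rest-/- replicate 1 Col12a1 turned from 1.23 to -0.07 and Col16a1 went from 0.96 to 0.054.

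Of type VI and the other non-fibrillar types, Col7a1, which encodes the anchoring fibrils of skin, had the highest level per kilobase, at 1.55 ± 0.924 CPM in WT and 3.65 ± 2.51 CPM in Rest-/- cells (SD, n = 2). It was at 22.4 and 9.11 CPM in WT and at 55.3 and 19.1 CPM in Rest-/- libraries (log2 change 1.24, standard error 0.68, adjusted p 0.965 in edgeR's quasi-likelihood test). The genotypes overlapped, since WT replicate 1 was above Rest-/- replicate 2, but the difference was alike within numbers, 1.28 in replicate 1 and 1.03 in replicate 2. The log2 change became 0.28 without Rest-/- replicate 1 and 0.73 without WT replicate 2, and was 2.02 without WT replicate 1. Col8a1, a short-chain collagen of vessels and cornea, had counts of 25 and 2 (WT) and of 84 and 1 (Rest-/-), a log2 change of 1.88 (standard error 1.73). Col6a3, the long chain of type VI, had counts of 27 and 4 (WT) and of 72 and 2 (Rest-/-), a log2 change of 1.48 (standard error 1.51). For these 2 genes replicate 1 was the higher library in both genotypes, and without Rest-/- replicate 1 their values turned to -3.18 and -2.45. Both passed the filter only through the replicate 1 libraries. Col6a1 and Col6a2, neighbours on chromosome 10, did not share that order: Col6a1 had counts of 46 and 108 (WT) and of 111 and 77 (Rest-/-), and Col6a2 had 49 and 90 (WT) and 61 and 55 (Rest-/-). The 3 transmembrane genes tested, Col13a1, Col17a1 and Col23a1, had log2 fold changes between -0.37 and 0.28. With a library left out each changed sign, from -0.20 to 0.69 (Col13a1), -0.99 to 0.75 (Col17a1) and -0.70 to 0.14 (Col23a1).

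To describe the high values of Rest-/- replicate 1, genes were counted whose CPM there was over 2 times that of every other library, a rule chosen after the values were seen. It held for 9 of 29 collagens tested, against 0.796% of all genes tested. They were the fibrillar genes Col1a1, Col1a2, Col3a1 and Col5a2, the FACIT genes Col12a1 and Col16a1, and Col6a3, Col7a1 and Col8a1, and 0 of 4 basement membrane genes. In each of these 9 genes, the level in Rest-/- replicate 2 lay within or below the range of the WT libraries.

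**Figure D4:**
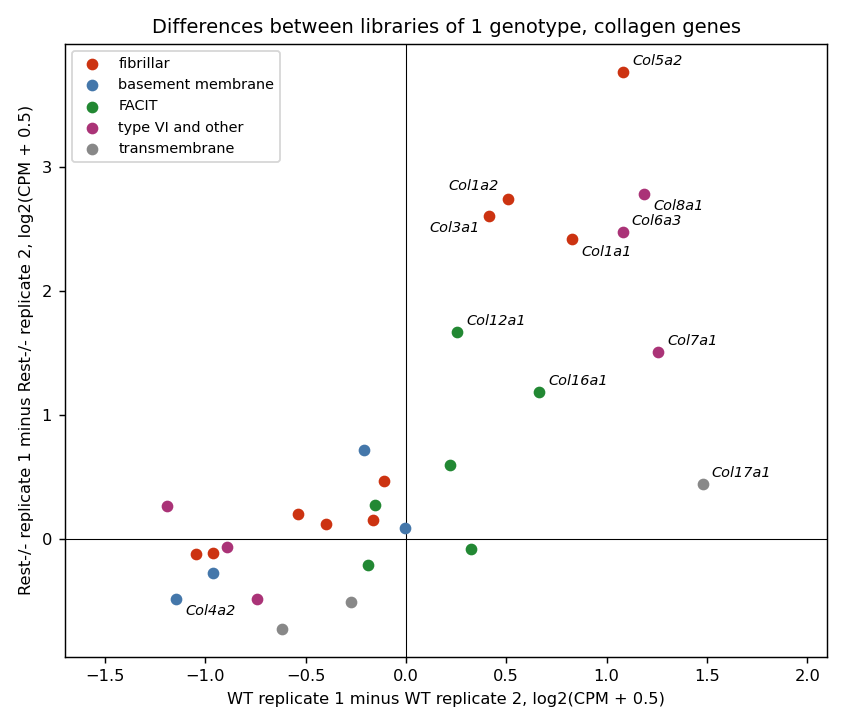
Difference between replicates 1 and 2 within WT (horizontal) and within Rest-/- (vertical), as log2(CPM + 0.5), for the 29 collagen genes tested, coloured by class. The 9 genes above 1 on the vertical axis are higher in replicate 1 in both genotypes and more so in Rest-/-, and Col4a2 lies at the lower left, lower in replicate 1 in both.

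These 9 genes were also higher in replicate 1 than in replicate 2 in WT, by 0.25 for Col12a1 to 1.26 for Col7a1 on the log2 scale. In Rest-/- cells they were higher by 1.18 to 3.77. Col6a3 and Col8a1 passed the filter only through the replicate 1 libraries, so their excess there in both genotypes was set by the filter. GC content moved with the replicate number over all genes: across the 14159 tested genes with a GC value, Spearman's rho between GC content and the replicate 1 minus replicate 2 difference was -0.39 in WT and -0.40 in Rest-/- cells, a description over genes that share libraries. Tested genes within 1 percentage point of the GC content of Col5a2 (44.6%) had median differences of 0.15 in WT and 0.14 in Rest-/- cells, beside 1.08 and 3.77 for Col5a2. For Col1a1, at 57.7% GC, the genes nearest in GC had medians of -0.16 and -0.14, beside 0.83 and 2.42. The part of GC content in the collagen differences was not tested.

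Markers of feeder fibroblasts that are not collagens were set beside them. The 18 markers summed to 108 and 175 CPM in WT and to 234 and 201 CPM in Rest-/- libraries. Of the 15 that passed the filter, 11 were highest in Rest-/- replicate 1, against 23.2% of all genes tested, 3 were there over 2 times every other library, against 0.796%, and 0 passed edgeR's quasi-likelihood test, with 3 at an unadjusted p under 0.05, against 6.71% of all genes tested. Their median log2 fold change was 0.68, with 0.89 in replicate 1 and 0.11 in replicate 2. The 3 over 2 times every other library were Prrx1, S100a4 and Cdh11. Prrx1, a mesenchymal transcription factor, had counts of 12 and 2 (WT) and of 51 and 3 (Rest-/-), highest in the library where Col3a1 was highest. It passed the filter only through the replicate 1 libraries. S100a4 had counts of 66 and 14 (WT) and of 211 and 12 (Rest-/-), and Cdh11 had 42 and 7 (WT) and 100 and 10 (Rest-/-). Twist2 had counts of 8 and 4 (WT) and of 23 and 14 (Rest-/-). Ctgf, a matricellular growth regulator, had counts of 2112 and 1704 (WT) and of 3284 and 1862 (Rest-/-). The contractile genes Tagln (323 and 1730 counts in WT, 977 and 1542 in Rest-/- libraries) and Acta2 (198 and 391, 624 and 306) were lower in WT replicate 1 than in WT replicate 2, unlike type I collagen. Without Ctgf, the marker with most counts, the sums were 40 and 112 CPM in WT and 107 and 117 CPM in Rest-/- libraries. Rest-/- replicate 1 was then no longer highest. The largest single part of these sums was Tagln, at 10.4 and 64.6 CPM in WT and at 37.8 and 69.6 CPM in Rest-/- libraries. Dpt was listed at 0 and Fap at 0 or 1 count in every library, while Thy1 had counts of 215 and 189 (WT) and of 179 and 121 (Rest-/-). The part of remaining feeder cells in the fibrillar values was not tested. Of 5 endothelial markers, Emcn was listed at 0, and the 4 tested had log2 fold changes below 0 and a median of -0.37. Pecam1, which ESCs also express, had counts of 3840 and 3662 (WT) and of 2211 and 2513 (Rest-/-), Tek 707 and 456, then 511 and 259, and Kdr 80 and 44, then 40 and 14.

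**Figure D5:**
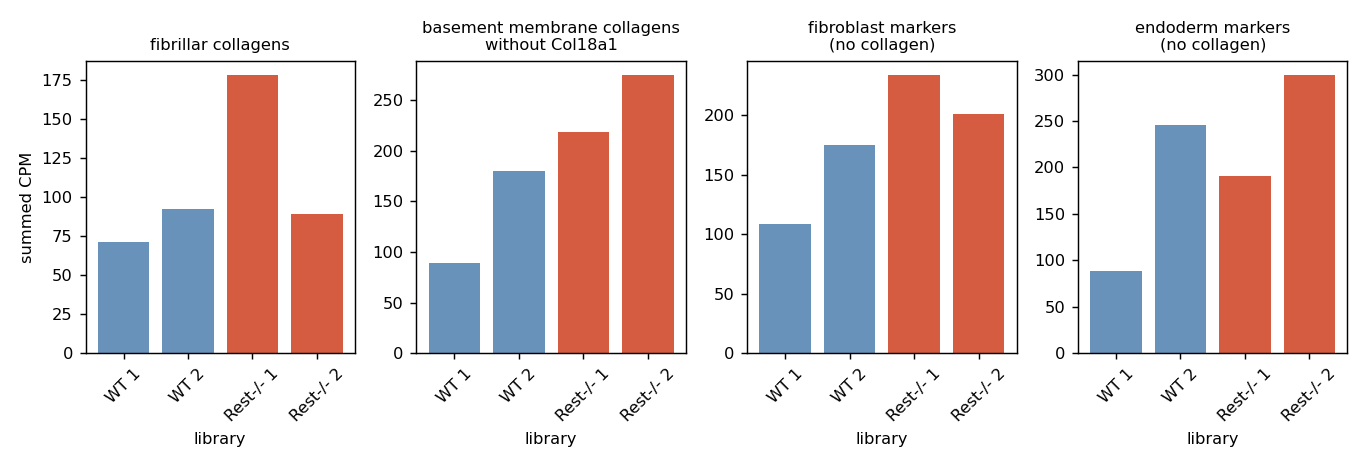
Summed CPM in each library of the 11 fibrillar collagens, the basement membrane collagens without Col18a1, 18 fibroblast markers and 15 endoderm markers, in 4 panels with axes from 0. Fibrillar collagens peak at 178 CPM in Rest-/- replicate 1 alone, whereas basement membrane collagens without Col18a1 are lowest in WT replicate 1 and highest in Rest-/- replicate 2. The endoderm sum shares those extremes, but peaks in Rest-/- replicate 1, at 67.2 CPM, when Lrp2 is left out.

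Of the proteins that bind fibrillar collagen, some were high in that library too. Of 15 fibrillar matrix partners, 12 were tested and 0 passed edgeR's quasi-likelihood test, with 1 at an unadjusted p under 0.05, against 6.71% of all genes tested. Their median log2 fold change was 1.04 (0.95 in replicate 1 and 0.14 in replicate 2). The level in Rest-/- replicate 1 was over 2 times every other library for 5 of 12, against 0.796% of all genes tested. Postn, encoding periostin, had counts of 19 and 2 (WT) and of 87 and 5 (Rest-/-), a log2 change of 2.35 (standard error 1.46). It passed the filter only through the replicate 1 libraries. Tnc, encoding tenascin-C, had counts of 250 and 42 (WT) and of 733 and 50 (Rest-/-) (log2 change 1.66, standard error 1.35). Fn1, the fibronectin gene, with the highest counts of the list, had counts of 22953 and 28217 (WT) and of 21347 and 24349 (Rest-/-), a log2 change of 0.10 (standard error 0.24), so it did not share the order. Thbs1 had counts of 1224 and 1860 (WT) and of 3284 and 1570 (Rest-/-), and Fbln1 1259 and 1369 (WT) and 867 and 817 (Rest-/-). Among small proteoglycans, Lum was listed at 0, Dcn had counts of 2 and 5 (WT) and of 3 and 1 (Rest-/-), and Bgn, encoding biglycan, had counts of 235 and 76 (WT) and of 603 and 99 (Rest-/-), a log2 change of 1.41 (standard error 0.92) with Rest-/- replicate 1 highest.

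The machinery that makes collagen was expressed in both lines. Of 21 genes for chain modification and folding, 19 were tested, 0 passed edgeR's quasi-likelihood test and 2 had an unadjusted p under 0.05, against 6.71% of all genes tested. The median log2 fold change was 0.16, with 4 higher and 3 lower without overlap, against 16.5% and 15.4% of all genes tested. P4hb, the β subunit of prolyl 4-hydroxylase, had counts of 10912 and 9673 (WT) and of 10320 and 8260 (Rest-/-), a log2 change of 0.11 (standard error 0.12). Tmem131, a helper of procollagen export, had counts of 10187 and 7156 (WT) and of 9657 and 7028 (Rest-/-). Colgalt1, which adds galactose to collagen, had counts of 6103 and 6109 (WT) and of 3677 and 3778 (Rest-/-), a log2 change of -0.44 (standard error 0.16, adjusted p 0.737). Fkbp10, a collagen chaperone, differed by 0.57 in replicate 1 and 0.59 in replicate 2 (adjusted p 0.581). P4ha3, a catalytic subunit of the same hydroxylase, had the library order of Col3a1, with counts of 15 and 5 (WT) and of 47 and 3 (Rest-/-) (log2 change 1.53, standard error 1.22). It passed the filter only through the replicate 1 libraries.

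Downstream of secretion, 14 genes act in propeptide removal or collagen crosslinking. Of these 13 were tested, 0 passed edgeR's quasi-likelihood test and 1 had an unadjusted p under 0.05, against 6.71% of all genes tested. The median log2 fold change was 0.19. Lox, the lysyl oxidase of fibrillar collagen, had counts of 146 and 20 (WT) and of 516 and 21 (Rest-/-), a log2 change of 1.93 (standard error 1.54), so its highest library was again Rest-/- replicate 1. Loxl3 had counts of 90 and 52 (WT) and of 191 and 61 (Rest-/-), a log2 change of 1.06 (standard error 0.58). Pxdn, the peroxidasin that crosslinks type IV collagen, had counts of 735 and 1835 (WT) and of 1358 and 1575 (Rest-/-), a log2 change of 0.42 (standard error 0.54), with its lowest library in WT replicate 1 as for Col4a1. Pcolce and Pcolce2, which enhance removal of the C-propeptide, differed in sign: 3079 and 2260 counts in WT against 3706 and 2350 for Pcolce (log2 change 0.44, standard error 0.21), and 1349 and 834 against 763 and 470 for Pcolce2 (log2 change -0.56, standard error 0.27).

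Of 11 collagen receptors, 8 were tested and 0 passed edgeR's quasi-likelihood test, with 1 at an unadjusted p under 0.05, against 6.71% of all genes tested. Their median log2 fold change was 0.28. Itgb1, the β subunit shared by the collagen integrins, had counts of 11684 and 12640 (WT) and of 10979 and 9875 (Rest-/-), a log2 change of 0.04 (standard error 0.16). Ddr1, a receptor kinase activated by collagen, had counts of 2732 and 3505 (WT) and of 3720 and 3411 (Rest-/-), a log2 change of 0.44 (standard error 0.23). Adgrg1, an adhesion receptor that binds type III collagen, had counts of 586 and 584 (WT) and of 263 and 203 (Rest-/-), with a log2 change of -1.07 (standard error 0.22, unadjusted p 0.006, adjusted p 0.399). Itga2 had counts of 12 and 1 (WT) and of 27 and 1 (Rest-/-), and passed the filter only through the replicate 1 libraries.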

How the data were processed

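RNA-seq counts of 4 mouse ESC libraries, 2 WT and 2 Rest-/-, were analysed; neural progenitor and ChIP data were not analysed here. Per the labels and the paper, the authors prepared TruSeq v2 libraries from total RNA, used Subread for mapping and featureCounts for counting over genes. The authors deposited whole-number counts per gene, without normalization. The submitters' processing notes name mm9. Tool versions, the gene annotation and strand settings are not given in the sources used here, so overlapping genes were not told apart. Of the rows, 368 held no identifier and were left out.

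Libraries were TMM scaled and genes filtered with filterByExpr in edgeR 4.0.16 (R 4.3.3), then compared with the quasi-likelihood test (prior count 0.125, Benjamini-Hochberg adjusted p under 0.05, no block). The standard errors printed are those the F statistic implies. Differences within replicate numbers used log2(CPM + 0.5), without a test. Sums and medians over classes have no test. Positions, exon lengths and GC content came from GENCODE M1 on mm9, and 21860 gene identifiers holding 95% of the counts matched. Sequences were read from that genome. The quasi-likelihood test was run on simulated counts of independent libraries with large changes, a check that does not show its power for these collagens.

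Genotypes and replicates came from the labels. The members and gene lists were chosen with earlier results of these data known. Full values were given for collagens with an adjusted p under 0.05 or a mean of at least 5 CPM in a genotype, and for the 3 other tested collagens with the largest fold change. From other lists, the 3 tested genes of highest mean and the 2 of largest fold change were named. Any other gene named was picked with its values in view. Marker sums without their leading gene were added after seeing the data. Alternatives were scaling by library size, RLE or upper quartile, 2 other filters, DESeq2 1.42.0, the edgeR exact test (common or tag-wise dispersion), a prior count of 2, a replicate block, coding length and leaving out each library. Intervals and floors cover counting error only.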

Additional observations from a re-analysis of the deposited data

How the results depend on the processing

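Scaling by RLE, upper quartile or library size and a prior count of 2 left the calls at 0 collagens. With 18 collagens followed singly, 226 of 250 values kept direction and side of the threshold, 15 passed it and 9 turned sign, all 9 with a library left out. Genes called higher and lower were 8 and 1 in the quasi-likelihood test, 49 and 4 without a filter, 3 and 0 with at least 10 counts in every library, 179 and 54 by the exact test with tag-wise dispersion, 246 and 97 with a common dispersion (5 collagens higher) and 180 and 58 by DESeq2. With a library left out, its lone partner being assumed to vary as the other genotype does, 54 to 88 genes were higher and 6 to 25 lower, and 0 to 1 collagens were higher, the 1 being Col1a1 without Rest-/- replicate 2. Over the same fits the median log2 fold change ran from -0.29 to 1.05 for fibrillar and from 0.054 to 0.75 for other collagens, the low ends without Rest-/- replicate 1, and from 0.45 without WT replicate 1 to 1.25 without WT replicate 2 for basement membrane collagens. Of the 18 followed singly, genes that turned sign ran from -0.14 to 2.33 (Col1a1), -0.45 to 2.43 (Col1a2), -1.07 to 0.012 (Col2a1) and -0.44 to 2.78 (Col3a1). Among the same 18, others that turned ran from -1.94 to 2.35 (Col5a2), -2.45 to 3.23 (Col6a3), -3.18 to 4.38 (Col8a1) and -0.14 to 0.16 (Col9a3). Per kilobase of coding length, Col18a1 in WT was at 133 CPM. The cause was not tested.

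The replicate numbers are shared by name, and nothing in the labels says that a number marks a shared batch or day. Deviations of same-numbered libraries from their group means correlated at r = 0.748 over 15444 genes. Under the replicate block, calls were 1308 higher and 1313 lower (17.0% of those tested), and 8 collagens were higher (Col18a1, Col1a1, Col22a1, Col4a1, Col4a2, Col5a3, Col7a1 and Col8a1) and 1 lower (Col9a2). The 11 collagens at or under 16 counts were not tested. With no filter 39 collagens were tested and 0 called.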

Other observations

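The table held 4 further collagen genes under older symbols, which the symbol rule did not take. Col26a1, listed as Emid2, had counts of 47 and 37 (WT) and of 14 and 15 (Rest-/-), with both Rest-/- libraries below both WT libraries (log2 fold change -1.25, standard error 0.39, unadjusted p 0.027 and adjusted p 0.657 in edgeR's quasi-likelihood test). The type VI chains α4 and α5, Col6a4 and Col6a5, were higher in replicate 1 in both genotypes: Col6a4 had counts of 166 and 28 (WT) and of 202 and 69 (Rest-/-), a log2 change of 0.77 (standard error 0.89), and Col6a5 had 263 and 56 (WT) and 405 and 123 (Rest-/-) (log2 change 1.00, standard error 0.84). Col6a6 had counts of 9 and 4 (WT) and of 22 and 8 (Rest-/-) and was not tested.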
